A study of Macaca mulatta with 24 samples.

Results

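The nondeprived parvocellular layers of the lateral geniculate nucleus (LGN) were compared with the nondeprived magnocellular layers, gene by gene, in 12 of the 24 arrays of the series. Arrays were taken by their titles: layers driven by the open eye, with layers 3 to 6 as parvocellular (8 arrays) and layers 1 and 2 as magnocellular (4 arrays). The tissue came from 2 infant rhesus macaques (Macaca mulatta), each deprived of vision in the left eye from birth. One animal wore an opaque contact lens for 2 months and the other had its lids closed by tarsorrhaphy for 4 months, so duration, method and animal cannot be told apart. Both LGNs of each animal were used. On the side of the deprived eye (ipsilateral) the open eye drives layers 1, 4 and 6, and on the other side (contralateral) layers 2, 3 and 5, which gave 1 magnocellular and 2 parvocellular arrays in each of the 4 LGNs. No array of an animal reared with both eyes open was analysed, so these are layers with normal input in animals with a deprived eye. Each array held RNA of 1 layer, captured by laser from pooled sections with the koniocellular layers left out and amplified in 2 rounds.

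The 2 layer classes are the thalamic stations of separate pathways from the retina to the primary visual cortex. Parvocellular relay cells are small, take input from midget ganglion cells, and carry color and fine detail. Magnocellular relay cells are large, take input from parasol ganglion cells, conduct faster, and carry motion and low contrast. Each layer also holds inhibitory interneurons, glia and vessels, and a captured sample mixes all of these. In such a bulk sample, fewer cells of a type and less RNA per cell cannot be told apart.

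Parvocellular layers had higher signals of the transcription factor BHLHE22, the collagen COL13A1, angiotensinogen (AGT), the Wnt enhancer RSPO3 and the sodium channel subunits SCN2A and SCN3B. Magnocellular layers had higher signals of the secreted matrix protein SPON2, the heparan sulfate enzyme NDST4, WNT5A, PBXIP1, the transcription factor EBF1 and the intracellular FGF homolog FGF11. Of 32916 probe sets tested with limma, 359 (1.09% of those tested) were higher in parvocellular layers at an adjusted p under 0.05. Another 171 (0.52%) were higher in magnocellular layers. Of these 530 (1.61% of those tested), 527 had 1 direction in 4 of 4 LGNs. That is, the parvocellular mean of log2 signals lay on the same side of the magnocellular array. The probe sets were called on these same arrays, which makes such agreement largely a matter of that choice. A difference of at least 1 on the log2 scale was found for 186 of the parvocellular and 67 of the magnocellular calls, and at least 2 for 30 and 11. A single gene symbol was available for 172 and 120 of the called probe sets, which stand for 157 and 113 genes. Among the genes named first, COL13A1, SCN2A, PBXIP1 and FGF11 each had 1 called probe set and another that was not called. NDST4 and the brightest probe set of SCN3B lost their calls without the trend of the spread with signal, and BHLHE22 without the LGN in the model.

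The counts depended on the model and on single arrays. Without the trend of the spread with signal the counts were 120 and 53. After scaling all arrays to the same median they were 161 and 146, so that the parvocellular share of the calls fell from 67.7% to 52.4%. The counts were 194 and 83 without layer 1 of the ipsilateral LGN at 2 months, 183 and 65 without layer 1 of the ipsilateral LGN at 4 months, and 162 and 76 without layer 2 of the contralateral LGN at 4 months. They were also over 1.5 times lower in at least 1 direction without layer 4 (209 and 101) or layer 6 (225 and 108) of the ipsilateral LGN at 2 months, and, on the contralateral side, without layer 3 at 2 months (238 and 116) or layer 5 at 4 months (202 and 99). All 530 probe sets kept their direction in each of these fits. The fits reuse arrays on which the probe sets were chosen, and leaving out the trend cannot change a direction. The median log2 difference of all tested probe sets was 0.03, with 53.8% above 0.

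**Figure D1:**
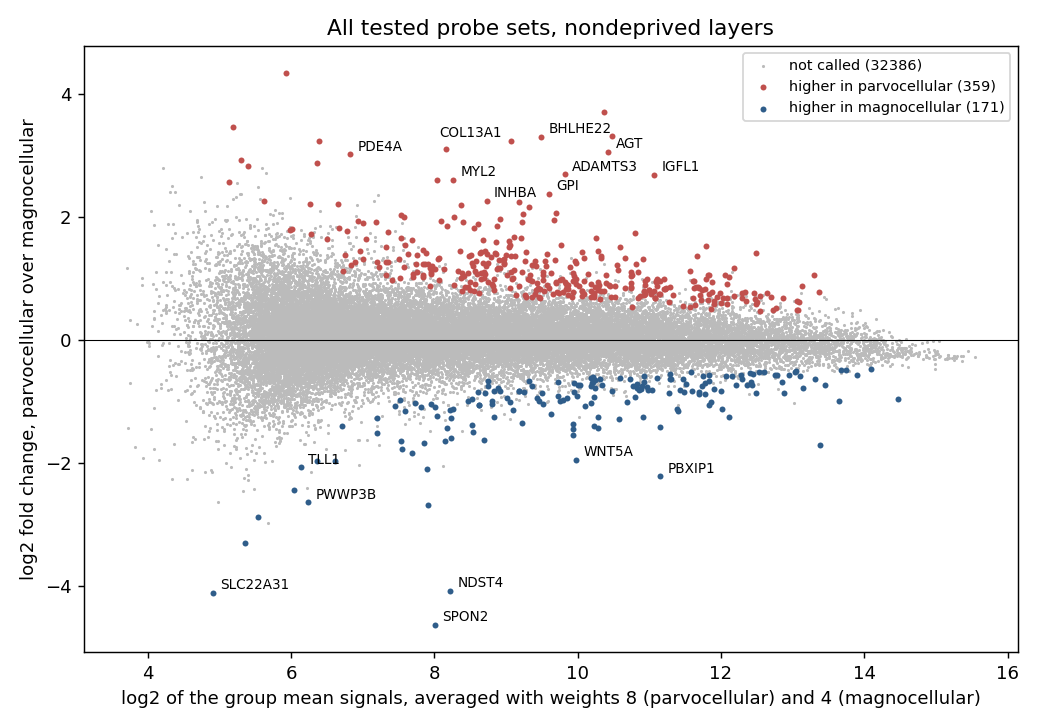
Each point is 1 of 32916 tested probe sets; the vertical axis is the log2 fold change of parvocellular over magnocellular layers, and the horizontal axis is the log2 of the group mean signals, averaged with weights 8 and 4. Red points (359) and blue points (171) passed an adjusted p under 0.05, and the points of SPON2, NDST4 and SLC22A31 lie lowest, under -4.

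Measures of RNA quality overlapped between the classes. The GAPDH 3′ to 5′ signal ratio, which grows as RNA or its copies shorten, was 1.97 to 6.06 (median 4.74) in parvocellular and 3.74 to 14.3 (median 4.36) in magnocellular arrays. The highest of these belonged to layer 2 on the contralateral side at 2 months, and the highest actin ratio (2148) to layer 3 of the same LGN. Without these 2 arrays 242 and 134 probe sets were called. Correlations between pairs of the 12 arrays were 0.862 to 0.953 across probe sets.

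Of the genes named by the size of their difference, 15 were higher in parvocellular layers. Signals are in arbitrary units of the authors' software, and magnocellular values follow the order ipsilateral then contralateral LGN at 2 months, then ipsilateral and contralateral at 4 months. BHLHE22, a basic helix-loop-helix factor of developing neurons, had signals of 61.3, 19.1, 243 and 427 in the magnocellular arrays and 342 to 2933 (median 1249) in the parvocellular ones. The classes overlapped across animals, with higher signals at 4 months in both, but within each LGN both parvocellular layers exceeded the magnocellular one. The log2 difference was 3.30 (SE 0.29, adjusted p = 5.91e-05, limma), or 9.83-fold.

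COL13A1, a transmembrane collagen, had magnocellular signals of 194, 184, 79.2 and 49.6 against 474 to 1778 (median 1225), with no overlap (log2 difference 3.24, SE 0.20, adjusted p = 1.18e-06). Its second probe set differed by 2.01 and was not called (adjusted p = 0.075). AGT, the precursor of the angiotensin peptides and in brain mainly an astrocyte product, had magnocellular signals of 290.0, 500.2, 295 and 269 against 1897 to 3608 (median 3005), 8.29-fold higher (log2 difference 3.05, SE 0.20, adjusted p = 2.12e-06). Of 15 astrocyte genes tested, each at its brightest probe set, AGT alone was called, and their median log2 difference was -0.11. GFAP had mean signals of 3283 and 4407 in parvocellular and magnocellular layers (log2 difference -0.41, adjusted p = 0.31) and GLUL 19896 and 23136 (-0.23, adjusted p = 0.417).

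ADAMTS3, a metalloprotease that trims procollagen, had magnocellular signals of 493, 192, 144 and 218 against 758 to 3260 (median 1603; log2 difference 2.69, SE 0.25, adjusted p = 9.9e-05). INHBA, the subunit of the growth factor activin A, had 189, 166, 89.0 and 143 against 368 to 1208 (median 651; log2 difference 2.26, SE 0.22, adjusted p = 0.000109). Neither gene overlapped between classes, although the second INHBA probe set differed by 0.53 and was not called (adjusted p = 0.588). IGFL1, a small secreted protein related to insulin-like growth factors, had 1111, 1342, 381 and 174 against 3067 to 4168 (median 3573; log2 difference 2.68, SE 0.32, adjusted p = 0.000549). Its parvocellular signals were nearly level, and the magnocellular ones were lower at 4 months than at 2. ADGRG6, an adhesion receptor needed for myelination by Schwann cells, was 3.87-fold higher in parvocellular layers (log2 difference 1.95, SE 0.24, adjusted p = 0.000653).

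A further pair of probe sets with no symbol in the platform table were named PAPPA, a protease that frees insulin-like growth factors from their binding proteins, in the study's own table. For probe set MmugDNA.2791.1.S1_at the magnocellular signals were 15.5, 52.2, 67.5 and 212 against 311 to 799 (median 544), a log2 difference of 3.09 (SE 0.37, adjusted p = 0.000653). For MmugDNA.27876.1.S1_at they were 65.7, 68.9, 116 and 56.6 against 159 to 826 (median 479), a difference of 2.60 (SE 0.31, adjusted p = 0.000653). The classes did not overlap in either. That table lists probe sets upregulated in deprived magnocellular layers, and the called ones of COL13A1, AGT and IGFL1 are in it too.

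The remaining parvocellular genes were of mixed function. MYL2, a regulatory light chain of myosin known from heart muscle, had magnocellular signals of 108, 126, 51.0 and 56.8 against 229 to 1178 (median 465; log2 difference 2.60, SE 0.43, adjusted p = 0.00628). Within LGNs the difference was 1.34 and 1.07 at 2 months and 4.07 and 3.91 at 4 months. This change was not called (adjusted p = 0.197, limma), and the 2-month animal alone gave no call for MYL2. A second MYL2 probe set was called at low signal. It was no longer called once signals under 50 were set to 50 (adjusted p = 0.52). ABHD12B, of a family of hydrolases, was 4.44-fold higher (log2 difference 2.15, SE 0.19, adjusted p = 6.11e-05) and NIF3L1 3.82-fold (1.93, SE 0.33, adjusted p = 0.00769). The call of NIF3L1 was lost without layer 1 of the ipsilateral LGN at 2 months (adjusted p = 0.0515). GPI, a glycolytic enzyme, differed by 2.37 (SE 0.27, adjusted p = 0.000403) at 1 probe set, with 291, 386, 202 and 165 against 910 to 2248, but by 0.14 and 0.19 at its other 2, neither of them called (adjusted p = 0.758 and 0.894).

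Differences between probe sets of a gene were also wide for PDE4A, a phosphodiesterase of cyclic AMP, and CIRBP, an RNA-binding protein. The called PDE4A probe set had magnocellular signals of 135, 16.9, 15.9 and 4.43 against 71.0 to 334 (median 179), a log2 difference of 3.01 (SE 0.52, adjusted p = 0.00851), which was 1.34 with signals under 50 set to 50. Another PDE4A probe set differed by 0.03 (adjusted p = 0.959), and its other 2 by 1.88 and 1.67 without a call (adjusted p = 0.139 and 0.0749). CIRBP differed by 2.21 at its called probe set (SE 0.50, adjusted p = 0.0401), a call lost in 8 of 12 fits with 1 array left out (adjusted p up to 0.157, without layer 1 of the ipsilateral LGN at 2 months), and by 0.10 to 0.63 at its other 3 probe sets. With signals under 50 set to 50, the called CIRBP probe set differed by 1.14 without a call (adjusted p = 0.0835).

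**Figure D2:**
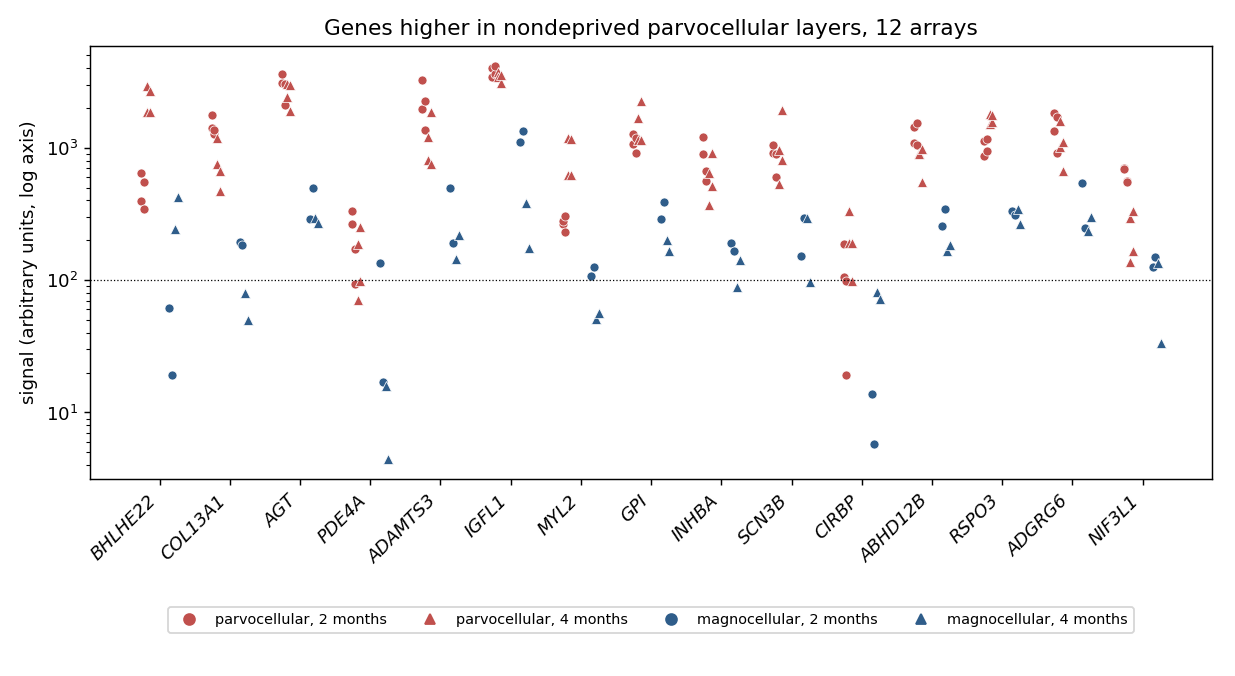
Signal on a log axis in each of the 12 nondeprived arrays for the 15 named genes higher in parvocellular layers (red, 8 arrays; blue, magnocellular, 4 arrays; circles 2 months, triangles 4 months; dotted line, signal of 100). In 11 of the 15 genes the 2 colors do not overlap; BHLHE22, PDE4A, CIRBP and NIF3L1 are the others.

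SPON2 showed the widest gap of the named genes. SPON2, or mindin, is a secreted matrix protein of the F-spondin family. Its magnocellular signals were 1794, 2336, 1987 and 1725, and its parvocellular signals 31.4 to 222 (median 89.2). The log2 difference was -4.63 (SE 0.41, adjusted p = 5.91e-05), 24.8-fold higher in magnocellular layers, and -4.48 with signals under 50 set to 50. NDST4, which adds sulfate to heparan sulfate chains, had magnocellular signals of 2288, 1046, 759 and 1368 against 4.32 to 347 (median 88.6; log2 difference -4.08, SE 0.61, adjusted p = 0.00314). The classes did not overlap for either gene, and the NDST4 difference was -3.53 with signals under 50 set to 50.

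WNT5A, a Wnt ligand that acts largely outside the beta-catenin pathway, had magnocellular signals of 2396, 1518, 2858 and 3317 against 462 to 841 (median 639), a log2 difference of -1.95 (SE 0.16, adjusted p = 4.19e-05). A second probe set was called too (-2.10, adjusted p = 0.000789), and the other one differed by -2.42 without a call (adjusted p = 0.0898). TLL1, a tolloid-like protease of matrix and growth factor precursors, had 237, 80.9, 222 and 213 against 24.8 to 64.5 (median 43.7; -2.08, SE 0.32, adjusted p = 0.0036). The highest parvocellular TLL1 signal lay below the lowest magnocellular one.

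PBXIP1, which binds PBX homeodomain proteins, was bright in both classes. It had magnocellular signals of 5500, 5140, 6755 and 6709 against 675 to 2066 (median 1400; -2.22, SE 0.27, adjusted p = 0.000663), although a second probe set did not differ by more than its error (-0.05, SE 0.21, adjusted p = 0.953). ANO3, a TMEM16 membrane protein, had 465, 417, 436 and 597 against 101 to 193 (median 126; -1.84, SE 0.23, adjusted p = 0.000683), and PLCE1, a phospholipase C, 347, 273, 451 and 633 against 70.6 to 226 (median 115; -1.78, SE 0.26, adjusted p = 0.00284).

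ITPR1, the receptor that releases calcium from internal stores, was singled out after its values were seen, for being called at 3 probe sets. They differed by -1.38, -1.63 and -1.21 (adjusted p = 0.00247, 0.00275 and 0.00321), and its other probe set by -1.27 without a call (adjusted p = 0.0874). At the brightest of the 3 the magnocellular signals were 1232, 990.5, 1602 and 1745 against 463 to 795 (median 590.1). VAV3, which was chosen in the same way, was called at 2 probe sets (-1.01 and -1.37, adjusted p = 0.000929 and 0.00153). Both other VAV3 probe sets, with parvocellular medians under 100, went the other way without a call (0.41 and 0.30, adjusted p = 0.721 and 0.895). In all, 21 genes had at least 2 probe sets called the same way and 0 genes had probe sets called in opposite directions.

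The other magnocellular genes included TDRP (-1.46, SE 0.15, adjusted p = 0.000258, with a second probe set at -1.07 and adjusted p = 0.0721), the ubiquitin ligase genes RNF175 (-1.55, SE 0.19, adjusted p = 0.000653) and RNF128 (-1.51, SE 0.25, adjusted p = 0.0056), the open reading frame C5H4orf19 (-1.68, SE 0.22, adjusted p = 0.00109) and TOX2, an HMG-box protein (-1.60, SE 0.27, adjusted p = 0.00788). None of these 5 overlapped between classes. TOX2 lost its call without layer 1 of the ipsilateral LGN (adjusted p = 0.0664) or layer 2 of the contralateral LGN at 4 months (0.0572). The others were of low signal. SLC22A31, of the organic anion transporter family, had 245, 206, 237 and 58.6 against 4.59 to 40.1 (-4.12, SE 0.74, adjusted p = 0.0103; -1.70 with signals under 50 set to 50), and PWWP3B 150, 114, 292 and 448 against 11.5 to 66.1 (-2.64, SE 0.53, adjusted p = 0.0203; -2.03 with that floor).

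Leaving out 1 array ended the call of SLC22A31 in 3 of 12 fits, those without layer 1 of the ipsilateral LGN at 2 months (adjusted p = 0.11) or at 4 months (0.0854) or layer 2 of the contralateral LGN at 2 months (0.0564). For PWWP3B it was also 3 of 12, without layer 1 of the ipsilateral LGN (0.133), layer 2 (0.117) or layer 5 (0.0502) of the contralateral LGN at 4 months. SLC29A4, a transporter of monoamines and adenosine, overlapped between classes (-1.52, SE 0.34, adjusted p = 0.0391) and lost its call in 8 of 12 (adjusted p up to 0.158, without layer 1 of the ipsilateral LGN at 4 months). Of the 30 named genes, 24 were called in all 12 fits. Without the trend 9 of the 30 lost their calls: NDST4 (adjusted p = 0.0564), TOX2 (0.0623), SCN3B (0.0632), PDE4A (0.0671), NIF3L1 (0.0682), MYL2 (0.0732), PWWP3B (0.0879), SLC29A4 (0.105) and CIRBP (0.127). Without the LGN block 5 did, RNF128 (0.0525), BHLHE22 (0.0533), NIF3L1 (0.0922), CIRBP (0.259) and SLC29A4 (0.427). With 1 mean of the parvocellular layers per LGN 8 of the 30 lost their calls, and with the inner parvocellular layers alone 12 did.

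**Figure D3:**
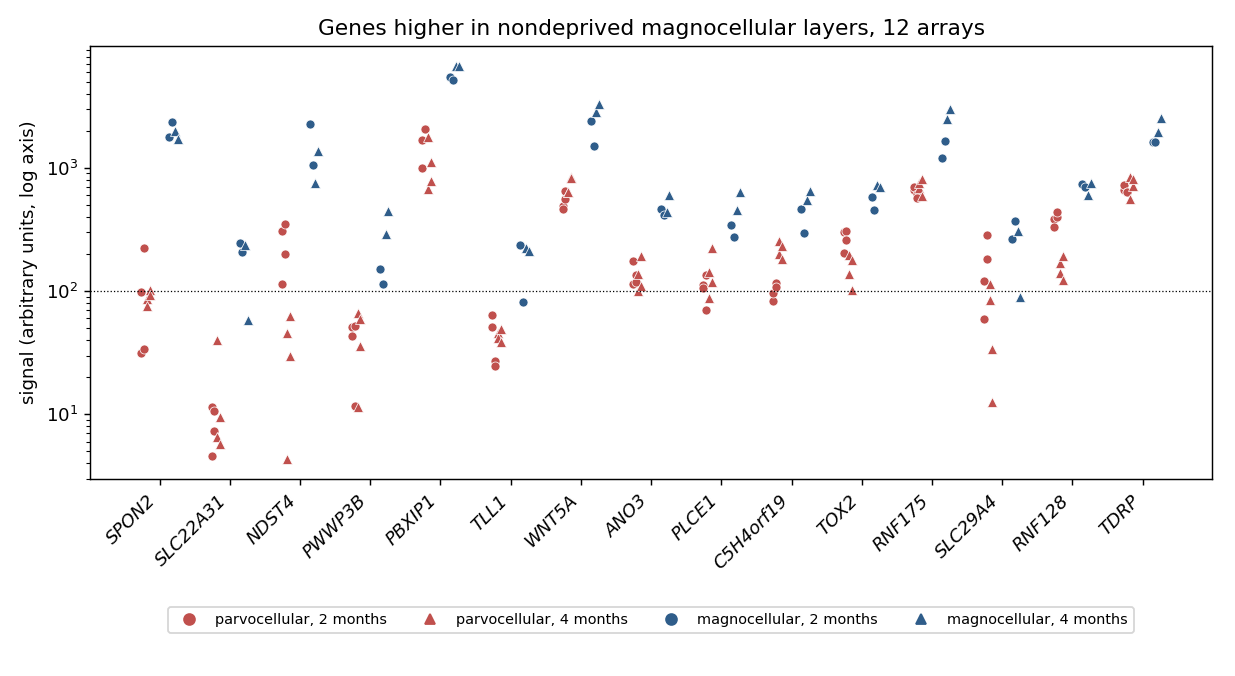
Signal on a log axis in each of the 12 nondeprived arrays for the 15 named genes higher in magnocellular layers (colors, symbols and dotted line as for the parvocellular genes). The classes do not overlap in 14 of the 15 genes; the exception is SLC29A4.

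The steepest differences of all belonged in part to probe sets with no gene symbol. MmugDNA.38317.1.S1_at had magnocellular signals of 204, 183, 228 and 339 against 1831 to 4025 (median 3141), a log2 difference of 3.70 (SE 0.20, adjusted p = 4.36e-07). MmugDNA.17404.1.S1_s_at, with at most 32.9 in magnocellular arrays against 60.7 to 221, differed by 4.33, or by 1.33 with signals under 50 set to 50. On the magnocellular side MmugDNA.18638.1.S1_s_at differed by -3.31 and MmugDNA.34336.1.S1_at by -2.88 (-1.76 and -1.53 with that floor). The second of these lost its call without any one of the 4 magnocellular arrays (adjusted p = 0.0564 to 0.128).

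Genes known for the 2 classes in the primate LGN differed less. NEFH, the heavy neurofilament subunit of large axons, had magnocellular signals of 33263, 50553, 41440 and 35798 against 23389 to 36436 (median 28582; log2 difference -0.47, SE 0.14, adjusted p = 0.123). PVALB, the calcium buffer parvalbumin of relay cells, had 27888, 31014, 27235 and 26394 against 17893 to 34478 (median 19989.9; -0.41, SE 0.15, adjusted p = 0.233). In both genes the magnocellular value exceeded the parvocellular mean of log2 signals in 4 of 4 LGNs, but the classes overlapped and neither gene passed the test. For PVALB in the contralateral LGN at 4 months this log2 difference was only -0.05. There 1 parvocellular layer (34478) lay above the magnocellular array (26394). ACAN, the core of perineuronal nets, differed by 0.30 to 0.83 at 3 probe sets (adjusted p = 0.179 to 0.564). FOXP2, a forkhead factor, had signals of at most 214 in every array at both probe sets and differed by 0.89 and 0.43 (adjusted p = 0.632 and 0.847). NEFM, NEFL, CALB1 and CAMK2A were not analysed here, as no tested probe set carries those symbols.

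For gene groups, 34 lists of neuronal functions, metabolism and cell types were read, with 511 of their 842 genes tested. Each gene was represented by its brightest probe set. Over 11365 genes represented in this way, 1.14% were called higher in parvocellular and 0.95% higher in magnocellular layers. Of the list genes 22 (4.31%) and 14 (2.74%) were called, and 11 and 13 of them had signals that did not overlap between classes. Among all called probe sets, 178 of 359 parvocellular and 116 of 171 magnocellular ones did not overlap either. Over all tested probe sets, called or not, 1.01% lay apart in the parvocellular and 0.775% in the magnocellular direction. The list counts were 9 and 6 without the trend, 13 and 10 with all arrays scaled to the same median, and 10 and 9 without the LGN block. Of the 29 called list genes that are not among the 30 named by size, 21, 14 and 16 lost their calls in these settings, and KCNJ10, EBF1, TOX, FGF11, SCN2A and LRRC4 kept theirs in all 3. With 1 mean of the parvocellular layers per LGN, however, 24 of the 29 lost their calls, KCNJ10 and LRRC4 among them. With the inner parvocellular layers alone, 29 of 29 did. With 1 array left out the list counts fell by over 1.5 times in at least 1 direction without the magnocellular arrays of the ipsilateral LGN at 2 months (15 and 6) and 4 months (12 and 6) or of the contralateral LGN at 4 months (11 and 5). The same held without layer 4 (15 and 9) or layer 6 (18 and 9) of the ipsilateral LGN and layer 3 (18 and 9) of the contralateral LGN at 2 months, and without layer 5 (14 and 10) of the contralateral LGN at 4 months. The lists were put together with earlier results of these data known, so their counts are descriptions.

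Transcription factors of thalamus and cell layers had 4 of 31 genes called higher in parvocellular and 1 in magnocellular layers, with a median log2 difference of 0.28 and 26 of 31 above 0. Besides BHLHE22, the parvocellular ones were TOX, an HMG-box protein, CUX2, known from upper cortical layers, and MEF2A, an activity-regulated factor. TOX had magnocellular signals of 209, 196, 276 and 280.1 against 392 to 874 (median 522; 1.20, SE 0.18, adjusted p = 0.0036), and its second probe set was called the same way. CUX2 differed by 0.79 (SE 0.15, adjusted p = 0.0136) and MEF2A by 0.61 (SE 0.12, adjusted p = 0.0137). CUX2 lost its call without either magnocellular array of the 4-month animal (adjusted p = 0.102 for the ipsilateral and 0.0603 for the contralateral LGN). MEF2A lost its call without either of these (0.0592 and 0.0845) or layer 1 of the ipsilateral LGN at 2 months (0.056). EBF1, an early B-cell factor, went the other way, with 1326, 789.6, 868 and 1478 against 224 to 583 (median 435; -1.35, SE 0.20, adjusted p = 0.00287) and a second probe set called as well. TCF7L2, which marks thalamic relay neurons, had mean signals of 29768 and 30353 at its brightest probe set (log2 difference -0.04, adjusted p = 0.934), while 1 of its 5 other probe sets, MmugDNA.20645.1.S1_s_at, was called at 0.71 (adjusted p = 0.0441).

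Of 10 genes of sodium channels and their partners, 2 channel subunits were called higher in parvocellular layers and 1 partner protein in magnocellular layers. SCN2A, a pore-forming subunit, had magnocellular signals of 1140, 472, 967 and 996 against 1657 to 2935 (median 2091; log2 difference 1.33, SE 0.18, adjusted p = 0.00154), although its other probe set differed by 0.04. The auxiliary subunit SCN3B had 151, 294, 295 and 97.3 against 533 to 1936 (median 905; 2.24, SE 0.35, adjusted p = 0.00417), with a second probe set at 1.97 (adjusted p = 0.000488) and the last at 0.33 without a call. FGF11, an intracellular FGF homolog of the family that binds sodium channels, had 3575, 2855, 2729 and 1994 against 842 to 1468 (median 1110.2; -1.28, SE 0.14, adjusted p = 0.000393), with a second probe set at -0.26. None of the 3 genes overlapped between classes, and the other 7 of the list, were not called, SCN3A among them (0.85, adjusted p = 0.0678).

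Among potassium channels, KCNB2, a delayed rectifier, was higher in parvocellular layers (372, 314, 128 and 90.7 against 291 to 719.6; 1.41, SE 0.27, adjusted p = 0.0143), with its second probe set called too. KCNB2 lost its call without layer 1 of the ipsilateral LGN (adjusted p = 0.079) or layer 2 of the contralateral LGN (0.0757) at 4 months. KCNJ10, the inward rectifier of glia, was higher in magnocellular layers (7218, 10592, 8757 and 7818 against 3909 to 5484, median 4775; -0.87, SE 0.12, adjusted p = 0.00227), with a second probe set at -0.06. No calcium or HCN channel of 11 was called. The chloride exporter SLC12A5, which sets the response to GABA, had mean signals of 7571 and 10724 (-0.51, SE 0.12, adjusted p = 0.0431) but lost its call in 11 of 12 fits with 1 array left out (adjusted p up to 0.182, without layer 2 of the contralateral LGN at 4 months).

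Wnt signaling genes had 3 of 25 called higher in parvocellular layers and 1, WNT5A, in magnocellular ones. RSPO3, a secreted enhancer of Wnt receptors, had magnocellular signals of 332, 313, 344 and 265 against 868 to 1788 (median 1346), a log2 difference of 2.06 (SE 0.18, adjusted p = 5.91e-05). WNT3, a ligand, differed by 0.95 (SE 0.17, adjusted p = 0.00962) and LRP6, a coreceptor, by 0.70 (SE 0.15, adjusted p = 0.0249). WNT3 lost its call without layer 1 of the ipsilateral LGN at 2 months (adjusted p = 0.0614) and LRP6 in 6 of 12 such fits (adjusted p up to 0.0917, without layer 2 of the contralateral LGN at 2 months). The median of the list was 0.15 in the fit over all 12 arrays, but the medians within the 4 LGNs were lower, -0.13 to 0.09.

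Adhesion proteins had 2 of 35 genes called higher in parvocellular layers, the protocadherins PCDH20 (1.14, SE 0.24, adjusted p = 0.0232) and PCDH10 (0.58, SE 0.13, adjusted p = 0.0453), and 3 higher in magnocellular layers. The latter were FLRT1 (-1.05, SE 0.19, adjusted p = 0.0115) and LRRC4 (-1.04, SE 0.21, adjusted p = 0.018), leucine-rich repeat proteins of the synapse, and the contactin CNTN6 (-0.75, SE 0.17, adjusted p = 0.0396). The calls of these 5 were lost in 7, 10, 3, 4 and 9 of 12 fits with 1 array left out, with adjusted p up to 0.127 and 0.176 for PCDH20 and PCDH10 without layer 1 of the ipsilateral LGN at 2 months, and up to 0.0917, 0.109 and 0.216 for FLRT1, LRRC4 and CNTN6 without layer 1 of the ipsilateral LGN at 4 months. Among 35 axon guidance genes, the ephrin receptor EPHA3 was higher in parvocellular layers (0.96, SE 0.16, adjusted p = 0.0073). EPHA3 lost its call with arrays scaled to the same median (adjusted p = 0.0709), without the trend (0.0685), and with the LGN as a random block (0.0587) or no block (0.165). SLITRK1 was higher in magnocellular ones (-0.85, SE 0.18, adjusted p = 0.0233), with its call lost in 5 of 12 fits (adjusted p up to 0.127, without layer 2 of the contralateral LGN at 4 months). Of 19 matrix genes, TNC, or tenascin C, was called in parvocellular (1.37, SE 0.25, adjusted p = 0.0117) and SPP1, or osteopontin, beside SPON2 in magnocellular layers (-0.57, SE 0.12, adjusted p = 0.0232). SPP1 lost its call in 8 of 12 fits (adjusted p up to 0.107, without layer 1 of the ipsilateral LGN at 4 months) and TNC in 2, without layer 1 of the ipsilateral LGN at 2 months (0.0619) or layer 2 of the contralateral LGN at 4 months (0.0528).

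Receptors and signaling genes had single calls. NTRK3, the receptor of neurotrophin 3, had magnocellular signals of 2698, 1870.4, 1319.7 and 982 against 1965 to 4596 (median 2787; 0.85, SE 0.13, adjusted p = 0.00356). Signals of both classes were higher at 2 months, and the classes overlapped across animals. CRHBP, which binds corticotropin-releasing hormone, was higher in magnocellular layers (763, 632, 1041 and 1327 against 289.5 to 582; -1.15, SE 0.24, adjusted p = 0.0232). HTR7, a serotonin receptor, was higher in parvocellular layers (68.8, 71.2, 79.5 and 120 against 66.3 to 542; 1.54, SE 0.33, adjusted p = 0.0304), as were the GABA receptor subunit GABRB1 (0.61, SE 0.13, adjusted p = 0.0304) and SYT6, a synaptotagmin (1.31, SE 0.26, adjusted p = 0.0183). Higher in magnocellular layers were CAMK2G, a subunit of the calmodulin-dependent kinase (-0.60, SE 0.11, adjusted p = 0.0106), and the growth factor FGF9 (-0.57, SE 0.12, adjusted p = 0.0307). NCALD, a neuronal calcium sensor, was higher in parvocellular layers (0.69, SE 0.16, adjusted p = 0.0431). None of the 6 glutamate receptors tested was called.

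NTRK3 kept its call in 12 of 12 fits with 1 array left out, but lost it with the LGN as a random block (adjusted p = 0.0924) or no block (0.237). In fits with 1 array left out, the calls of CRHBP, HTR7, GABRB1, FGF9 and NCALD were lost in 5, 8, 7, 9 and 9, with adjusted p up to 0.169 for HTR7, 0.16 for FGF9 and 0.206 for NCALD without layer 1 of the ipsilateral LGN at 4 months and up to 0.127 for CRHBP and 0.129 for GABRB1 without layer 2 of the contralateral LGN at 4 months. CAMK2G lost its call without that last array alone (adjusted p = 0.065), and SYT6 without it (0.101), without layer 1 of the ipsilateral LGN at 4 months (0.0572) or without layer 5 of the contralateral LGN at 4 months (0.0505).

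FOS, an immediate early gene that rises with neuronal activity, had magnocellular signals of 634, 478.5, 405 and 309 against 373 to 3466 (median 895; log2 difference 1.28, SE 0.28, adjusted p = 0.0317). The difference lay mostly in the 2-month animal, whose parvocellular signals were 1130 to 3466, against 373 to 660.2 at 4 months. The call was lost in 6 of 12 fits with 1 array left out (adjusted p up to 0.151, without layer 1 of the ipsilateral LGN at 2 months). FOS was the 1 gene called of 12 immediate early genes, of which 9 were above 0 and the median was 0.25.

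At the brightest probe set of each gene, no gene of the 2 energy metabolism lists was called, while another probe set of the glycolytic gene GPI was, as given above. Of 51 oxidative phosphorylation genes, 35 were below 0, that is higher in magnocellular layers, with a median of -0.14. The medians within the 4 LGNs were 0.00 and -0.45 at 2 months and -0.07 and -0.04 at 4 months, ipsilateral side first. The contralateral value at 2 months rests on the magnocellular array with the highest GAPDH ratio, whose part in it was not tested. The glycolysis list (14 genes, median -0.05) and the neurofilament and cytoskeleton list (21 genes, median -0.06) also held 0 called genes.

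**Figure D4:**
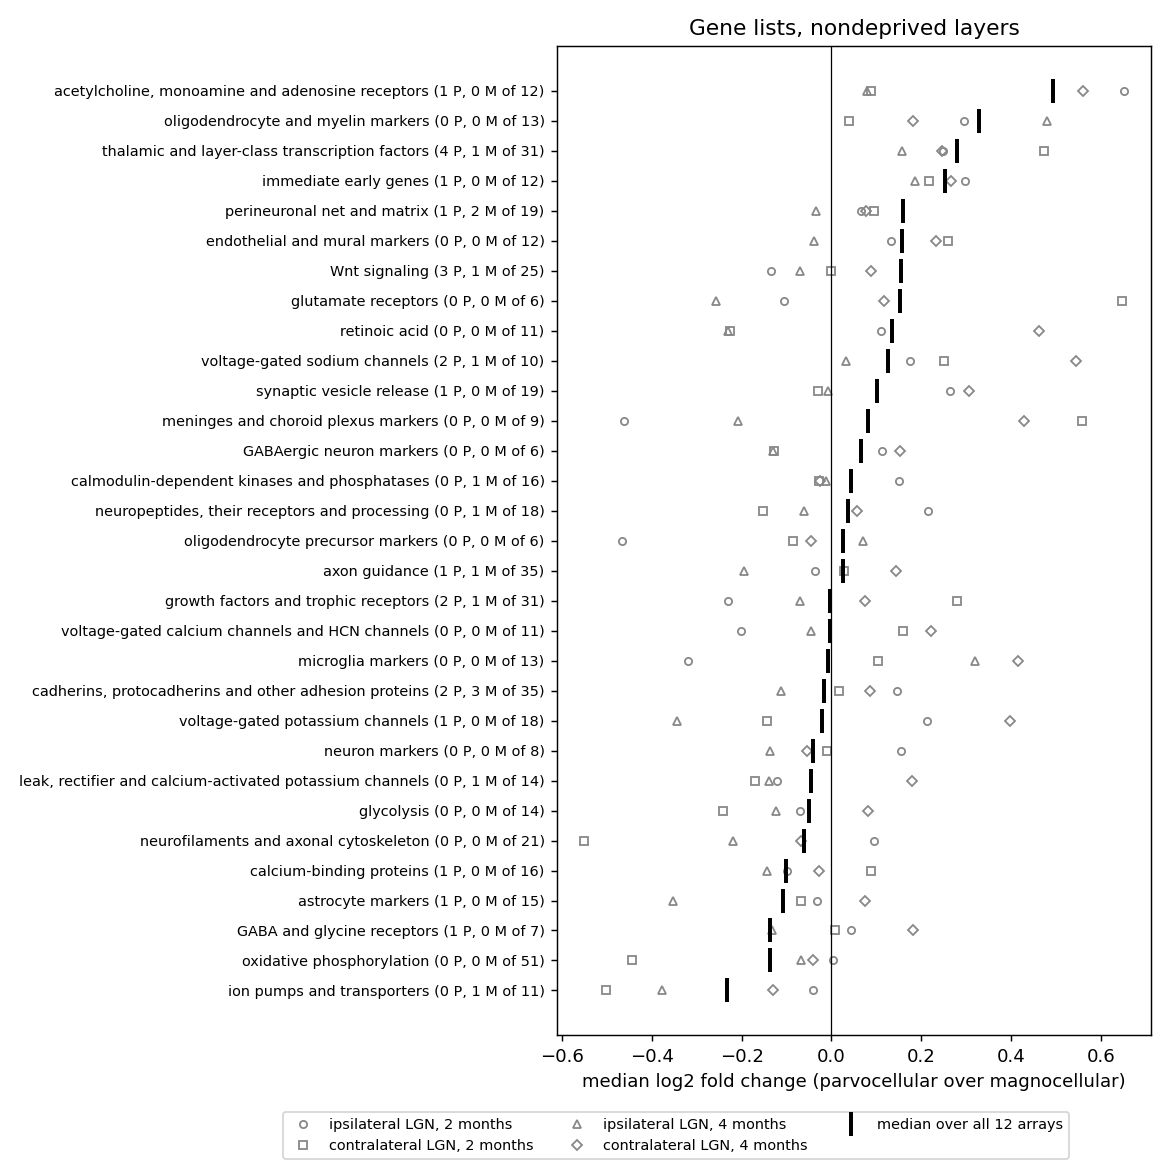
Median log2 fold change, parvocellular over magnocellular, of the genes of each list with at least 5 tested genes: black bars are from the fit over all 12 arrays, open symbols from each LGN (its parvocellular mean minus its magnocellular array). The labels give the numbers of genes called higher in parvocellular (P) and magnocellular (M) layers; the medians run from -0.23 for ion pumps and transporters to 0.49 for acetylcholine, monoamine and adenosine receptors.

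Markers of the cell types in and next to the layers were read beside these results, by the sum of signals over each list. Neuron markers (8 genes) summed to 93047 to 121827 in parvocellular and 103514 to 125432 in magnocellular arrays, and relay neuron markers (4 genes) to 45658 to 70849 and 56895 to 71222. The sums of inhibitory neuron markers (6 genes) overlapped little, 9700 to 15469.9 against 14999.5 to 17238. The sum is mostly GAD1, the enzyme that makes GABA, with mean signals of 10915 and 15371 (log2 difference -0.51, adjusted p = 0.0631). Of the 6 genes, 3 were above 0 and 3 below, with a median log2 difference of 0.07. Microglia markers (13 genes) summed to 6597 to 9614 and 9475 to 11883, with CD68 as the largest part (-0.54, adjusted p = 0.107). Of these genes, 6 were above 0 and 7 below, with a median of -0.01 and medians within the 4 LGNs of -0.32 to 0.42. Myelin markers (13 genes) summed to 73184 to 87983 and 67252 to 91534, with 10 of 13 above 0 and a median of 0.33. Sums of astrocyte, koniocellular, precursor, vessel, meningeal and blood markers overlapped between the classes. At the brightest probe set of each gene, no gene of these cell type lists was called apart from AGT. Another probe set of the relay neuron marker TCF7L2 was called, as given above. The part of the inhibitory and microglial sums in the gene differences was not tested.

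The deprived layers of the same 4 LGNs gave a second set of arrays, 8 parvocellular and 4 magnocellular, from the same animals. Of the probe sets higher in nondeprived parvocellular layers, 313 of 359 had the same direction there, and of those higher in nondeprived magnocellular layers, 162 of 171. Over all tested probe sets 58.7% did. The median log2 difference of the called probe sets went from 1.04 in nondeprived to 0.62 in deprived layers for the parvocellular and from -0.87 to -0.56 for the magnocellular ones. These probe sets were chosen for their differences in the nondeprived layers, which makes smaller values elsewhere a matter of that choice in part. The 2-month array of magnocellular layer 2 that the deprived eye drives, which had a GAPDH ratio of 50.8, stood apart from the rest, and without it 302 and 162 had the same direction and the medians were 0.51 and -0.55.

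Of the 30 named genes, CIRBP alone had the opposite sign in deprived layers (-0.18, SE 0.40), and its value was 0.14 (SE 0.42) without the array that stood apart. COL13A1 differed by 0.98 (SE 0.34) there against 3.24 in nondeprived layers, and SPON2 by -2.11 (SE 0.38) against -4.63. FGF11, a called list gene that is not among the 30, differed by -2.27 (SE 0.21) against -1.28. MYL2 (2.59, SE 0.47), GPI (2.45, SE 0.20) and SCN3B (2.47, SE 0.21) had values close to their nondeprived ones. Mean magnocellular signals in nondeprived and deprived layers were 127 and 1378 (SD 1339) for COL13A1. They were 339 and 1393 for AGT and 752 and 1934 for IGFL1. In the same order of genes, the parvocellular means were 1112 and 1711, 2773 and 4926, and 3619 and 4170. The paper lists these genes as upregulated in deprived magnocellular layers. Deprived and nondeprived layers of the same class were not compared by a test here. A limma test of whether the difference between classes changed with deprivation called 0 of 37623 probe sets (0%). Its lowest adjusted p was 0.171, and 2540 probe sets had an unadjusted p under 0.05. COL13A1 had an adjusted p of 0.265 in this test, SPON2 of 0.519 and FGF11 of 0.54.

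**Figure D5:**
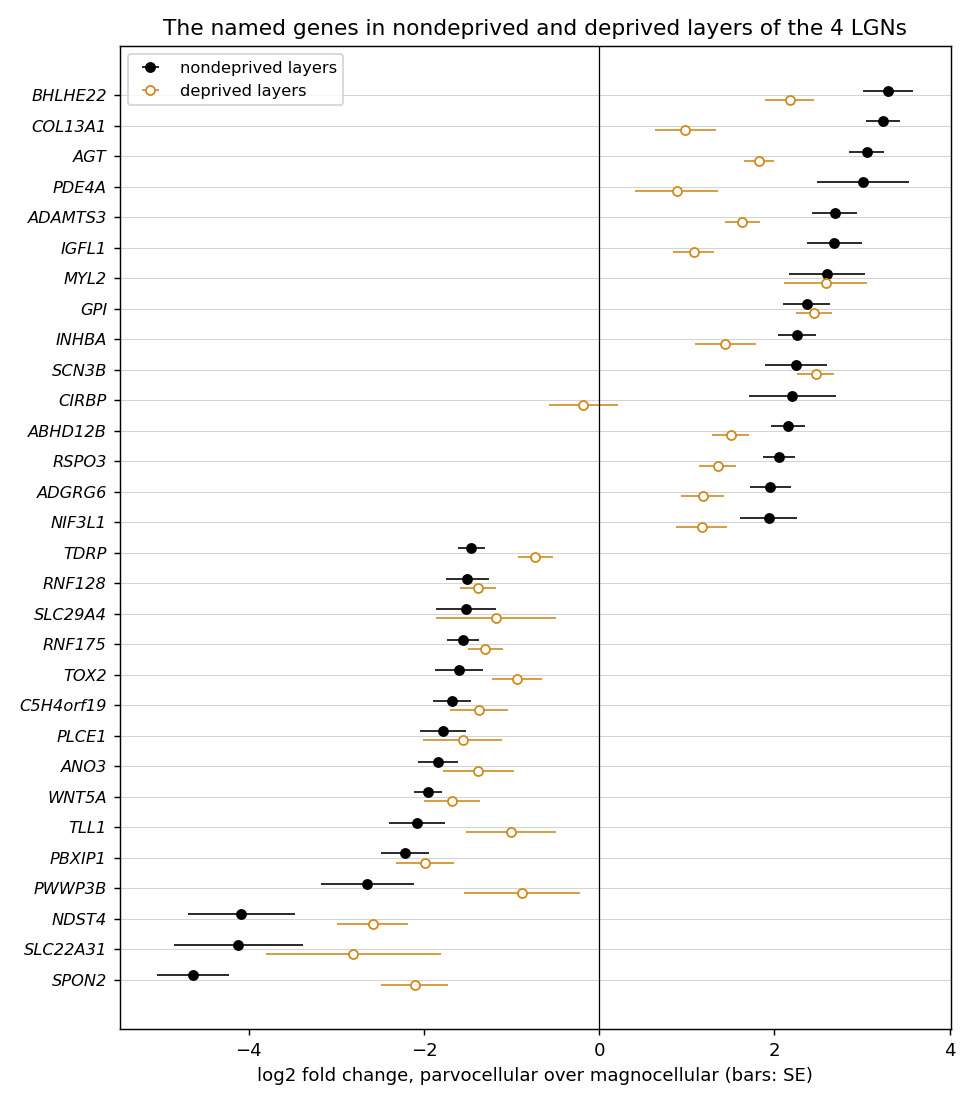
Log2 fold change of parvocellular over magnocellular layers with its SE for the 30 named genes, in nondeprived layers (filled, 8 and 4 arrays) and in deprived layers of the same LGNs (open, 8 and 4 arrays). Signs are the same in both for 14 of 15 parvocellular and 15 of 15 magnocellular genes, and CIRBP crosses 0 (-0.18, or 0.14 without the deprived array that stood apart).

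The difference between layer classes was also compared between the animals. It differed between 2 and 4 months for 2 probe sets (0.00608% of those tested; 3062 at an unadjusted p under 0.05). ELMO1, which acts in cell migration and engulfment, had magnocellular signals of 1005 and 492 at 2 months and 5026 and 3561 at 4 months, while its parvocellular signals were 478 to 1733. The change of the log2 difference between classes from 2 to 4 months was -3.03 (SE 0.37, adjusted p = 0.0328). The other, MmugDNA.22116.1.S1_at, has no symbol in the platform table. In the study's own table it is NTS, the gene of the peptide neurotensin. Its parvocellular signals were 605 to 780.4 at 2 months and 6.00 to 48.2 at 4 months against 130.2 to 201 in all magnocellular arrays (change of -5.10, SE 0.68, adjusted p = 0.048). With 1 array left out the count was 220 without layer 1 of the ipsilateral LGN at 2 months and 0 without any other array of the 2-month animal or layer 5 of the contralateral LGN at 4 months. It was 1 without layer 1 of the ipsilateral LGN at 4 months, and 2 or 3 without the others.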

How the data were processed

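The authors captured each layer from pooled sections, amplified the RNA in 2 rounds, hybridized it to the Rhesus Macaque Genome Array and computed signals with GCOS. The deposited values are 1 signal intensity per probe set and array on a linear scale, with the trimmed mean (2% cut at each end) equal across arrays. Classes were taken from the layer numbers of the labels and the study's layer scheme.

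Of 52865 probe sets, 99 controls were left out. The 32916 that reached a signal of 100 in 1 or more of the 12 nondeprived arrays were tested. For the change of the class difference with deprivation, the same filter over all 24 arrays kept 37623. Signals under 1 were set to 1. On log2 values, limma 3.58.1 in R 4.3.3 (statmod 1.5.0) fitted layer class with the LGN as a fixed block (eBayes with a trend, 7 residual degrees of freedom), with Benjamini-Hochberg adjustment over all probe sets. A call is an adjusted p under 0.05. The scripts were tested on simulated data. The LGN pairs the arrays because its layers come from 1 nucleus; deviations of arrays correlated by -0.019 to 0.271 (median 0.155) within an LGN.

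With 2 animals, the p-values rest on how layers vary inside LGNs, not on how animals vary, and the number of arrays limits the precision. Members, lists and most alternatives were chosen with earlier results of these data known. Of the tested probe sets 18353 have 1 symbol in the platform annotation, 262 several and 14301 none. The named genes are, per direction, the 15 with 1 symbol and the largest difference among called probe sets with a mean of at least 100 in the higher class and 1 direction in 4 of 4 LGNs. Also named are called list members, up to 4 others of a list by p, and known class genes. Alternatives were scaling, offset, floor, filter, trend, block, a GAPDH ratio covariate, layer subsets, each animal alone and each array left out. Chosen after seeing the data were the floor of 50 without the trend, the fit without 2 contralateral arrays, and the deprived values without 1 array.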

Additional observations from a re-analysis of the deposited data

Results flagged for a closer look

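Of 160 groups of signals of reported probe sets checked with Dixon's test, 13 had 1 array far from the rest. For normal values chance alone flags about 1 in 20 groups. These signals were on the linear scale and each group held both animals, so that rate need not apply. Among magnocellular arrays, layer 2 of the contralateral LGN at 2 months, the one with the highest GAPDH ratio, was apart for AGT (500.2 against 269 to 295) and TLL1 (80.9 against 213 to 237). Layer 1 of the ipsilateral LGN at 2 months was apart for PDE4A (135 against 4.43 to 16.9). Layer 1 of the ipsilateral LGN at 4 months was apart for FLRT1 (1742 against 982 to 1030) and WNT3 (2846 against 1711 to 1827).

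Among parvocellular arrays, layer 3 of the contralateral LGN was apart at 2 months for SPON2 (222 against 31.4 to 102) and for the second WNT5A probe set (257 against 103 to 164), and at 4 months for PLCE1 (226 against 70.6 to 143) and PVALB (34478 against 17893 to 22431). Layer 4 of the ipsilateral LGN at 4 months was apart for FOXP2 (214 against 4.28 to 93.7) and MmugDNA.18638.1.S1_s_at (45.8 against 9.91 to 20.3), layer 6 of the same LGN for SLC22A31 (40.1 against 4.59 to 11.4), and layer 5 of the contralateral LGN at 4 months for SCN3B (1936 against 533 to 1048).

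The difference between classes changed between the animals, by the interaction test in limma, for ELMO1 (-3.03, adjusted p = 0.0328) and MmugDNA.22116.1.S1_at (-5.10, adjusted p = 0.048).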

How the results depend on the processing

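Numbers of probe sets higher in parvocellular and in magnocellular layers are given as pairs. They were 359 and 171 as reported, 161 and 146 with all arrays scaled to the same median, 120 and 53 without the trend, and 199 and 90 without the trend and with signals under 50 set to 50. With the pairing by LGN ignored (no replicate block) they were 143 and 85. They were 32 and 11 with the inner parvocellular layers alone, 92 and 44 with the outer alone, 69 and 39 with 1 mean per LGN, 128 and 30 in the 2-month and 64 and 35 in the 4-month animal; these fits have 3 residual degrees of freedom. With 1 array left out they ran from 162 to 404 and from 65 to 196. Every other setting stayed within 1.5 times. The 530 probe sets kept their direction where tested, but all these fits reuse arrays on which they were chosen. Fits that change only the trend, the block or the averaging of layers per LGN cannot change a direction, as the classes are balanced over LGNs. The duration count of 2 became 0 without the trend, 4 with signals under 50 set to 50, and 0 to 220 with 1 array left out. The count of 0 for a change of the class difference with deprivation remained 0 in each fit without block or trend. It was 0 to 1 with 1 array left out. FOXP2 at MmugDNA.41356.1.S1_at turned to -0.48 in the 2-month animal alone. The smallest difference called was 0.47 on the log2 scale, and 42 parvocellular and 10 magnocellular calls have a mean under 100 in the other class, where the signal limits what a fold change says. Medians of the lists moved by less than the spread between LGNs in 996 cases and by more in 58.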
